A study of Mus musculus with 20 samples.

Results

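In RNA-seq of mouse skin, 10 genes that encode angiogenic ligands and receptors were examined. The genes were chosen by symbol and are the VEGF family ligands Vegfa, Vegfb, Vegfc and Pgf, the VEGF receptors Kdr, Flt1 and Flt4, the co-receptor Nrp1, and the angiopoietins Angpt1 and Angpt2. All 10 were found among the 22090 gene symbols of the count table, of which 18160 had a count in at least 1 sample. The tissues were back skin of female SKH-1 mice, a hairless strain, 7 months old when obtained and before the course of irradiation, and comprised 8 normal skin (NS), 8 actinic keratosis (AK, a precancerous lesion) and 4 cutaneous squamous cell carcinoma (cSCC) samples. Of 8 mice, 4 were irradiated with a solar simulator that gave UVA and UVB, and 4 were not. The irradiated mice gave the AK, the cSCC and part of the NS samples. The labels name neither the mouse of a sample nor which NS samples were irradiated, and they do not separate the AK grades, so NS, AK and cSCC were each treated as 1 group of unpaired samples. The 8 AK samples came from 4 mice, so that p-values rest in part on tissues of the same animal and may be too small. The same 4 mice gave the cSCC and part of the NS samples. This sharing between groups could not be modelled either, and it can shift p-values in the other direction.

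In angiogenesis, cells that lack oxygen secrete VEGF, which binds receptor tyrosine kinases on the endothelial cells of nearby vessels and makes them sprout. Kdr (VEGF receptor 2) carries most of this signal for Vegfa, Flt1 (VEGF receptor 1) binds Vegfa, Vegfb and Pgf and can act as a decoy, and Flt4 (VEGF receptor 3) binds Vegfc and is known for lymphatic vessels. The angiopoietins act on Tek, another endothelial receptor: Angpt1 stabilizes vessels, and Angpt2, released by activated endothelium, loosens them so that sprouting can start.

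Libraries are named below by group and by the number in their label. Total counts ranged from 775750 in cSCC 20 to 14055206 in AK 10. Levels are given in CPM, for which each library total was scaled with the TMM factors of edgeR, and 3 counts, taken as the detection floor, corresponded to 3.41 CPM in cSCC 20, 3.78 CPM in AK 12 and 0.22 CPM in AK 10. This floor covers counting error only. Of the 4 cSCC libraries, 3 stood apart from the rest. In cSCC 20 the 11 lung epithelial markers summed to 36322 CPM, against 15.5 to 61.8 CPM in every other library, and Sftpc, a lung surfactant protein, alone reached 22389 CPM. In cSCC 21 the 12 heart muscle markers summed to 67289 CPM, against 13 to 188 CPM in the others, and Actc1, cardiac actin, reached 15454 CPM. In cSCC 18, 46.8% of all counts fell on 4 haemoglobin genes (95% Wilson interval 46.76 to 46.87, counting error only), against 14.3% in AK 14 and 0.0917% to 6.02% in the remaining libraries. The keratinocyte genes Krt5 and Krt14 were present in all libraries, with Krt14 lowest in cSCC 21 at 2917 CPM. The 6 keratinocyte genes followed below summed to 6378 to 19004 CPM in NS and 9625 to 16972 CPM in AK. In cSCC 18 and 19 they summed to 17976 and 17175 CPM, and in cSCC 20 and 21 to 5145 and 3785 CPM, below every NS and AK library. Krt10, a keratin of differentiating epidermis, was at 321 CPM in cSCC 18 and at 9.23, 44.4 and 11.6 CPM in cSCC 19, 20 and 21, below every NS and AK library (231 to 2486 CPM) in the last 3. Lung and heart tissue are rich in vessels, so each comparison with cSCC is given with and without cSCC 20 and 21. Without them only cSCC 18 and 19 remain, so a gene that misses the threshold there is not shown to be unchanged. In bulk tissue, more cells of a type and more RNA per cell cannot be told apart.

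Promoter sequences are shown for Vegfa, Pgf and Kdr, 2 ligands and a receptor called higher in cSCC than in NS below, of which the call of Kdr rested on cSCC 21. RefSeq windows on GRCm38.p6, from 250 bases before to 50 after a transcription start, were matched for 8 of the 10 genes (10 windows), and not for Angpt1 and Angpt2. Capitals mark ACGTG, 1 form of the core of the element bound by hypoxia-inducible factors (CACGT on the other strand), and GGGCGG, the GC box (CCGCCC on the other strand), where CACGTG would count on both strands. The form GCGTG was not searched for and is not marked. Each sequence is on the minus strand, 5′ to 3′. The Vegfa windows are chr17:46032328-46032627 at the upstream start and chr17:46025114-46025413 at a start inside the gene, the Pgf window is chr12:85177264-85177563 and the Kdr window is chr5:75978406-75978705.
Vegfa upstream start: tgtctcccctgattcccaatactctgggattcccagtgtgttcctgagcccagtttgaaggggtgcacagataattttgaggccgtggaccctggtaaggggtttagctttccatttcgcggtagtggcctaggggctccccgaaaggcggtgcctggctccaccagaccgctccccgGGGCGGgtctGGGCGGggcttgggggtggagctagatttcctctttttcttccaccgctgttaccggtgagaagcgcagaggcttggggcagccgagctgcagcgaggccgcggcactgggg
Vegfa internal start: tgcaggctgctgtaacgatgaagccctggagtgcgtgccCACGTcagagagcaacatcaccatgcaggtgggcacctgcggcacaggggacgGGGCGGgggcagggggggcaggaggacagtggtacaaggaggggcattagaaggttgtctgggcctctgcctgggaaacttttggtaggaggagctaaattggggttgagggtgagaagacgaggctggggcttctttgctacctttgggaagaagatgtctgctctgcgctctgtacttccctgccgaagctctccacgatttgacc
Pgf upstream start: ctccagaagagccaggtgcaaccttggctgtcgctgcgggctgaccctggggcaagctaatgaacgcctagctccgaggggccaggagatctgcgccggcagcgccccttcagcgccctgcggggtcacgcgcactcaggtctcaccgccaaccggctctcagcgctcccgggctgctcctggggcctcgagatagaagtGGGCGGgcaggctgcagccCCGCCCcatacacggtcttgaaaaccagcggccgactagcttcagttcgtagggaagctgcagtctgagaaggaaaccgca
Kdr start: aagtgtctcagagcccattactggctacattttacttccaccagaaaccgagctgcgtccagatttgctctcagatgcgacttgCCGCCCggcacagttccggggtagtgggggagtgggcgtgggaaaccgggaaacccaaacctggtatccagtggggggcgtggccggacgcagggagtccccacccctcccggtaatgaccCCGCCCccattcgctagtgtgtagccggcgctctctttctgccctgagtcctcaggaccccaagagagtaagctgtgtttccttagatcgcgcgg
ACGTG was found in 1 of the 10 windows, that of the internal Vegfa start, against 19.6% of the 32851 promoter windows of the RefSeq table. GGGCGG was found in 9 of the 10 windows and in each of the 8 genes, against 35.7% of all windows. The window without it is a second Pgf start, chr12:85175933-85176232, which held neither motif and is not shown. The Vegfa upstream window held 2 GC boxes, the Pgf upstream window 1 on each strand and the Kdr window 2 on the other strand. These matches describe letters within the windows only.

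Vegfa was the member that separated AK from NS. Its level in NS was 2.70 CPM at the lowest, 6.57 at the median and 8.13 at the highest (5.65 ± 1.99, SD, n = 8), and in AK it was 5.04, 18 and 27.6 CPM (17.1 ± 7.90, SD, n = 8). In all, 7 of the 8 AK samples lay above every NS sample, and AK 12, the smallest AK library with 4 Vegfa counts, lay within the NS range. Vegfa (17:46016993-46032369, minus strand, GENCODE M21 on GRCm38) was higher in AK by a log2 fold change of 1.60 ± 0.32 (SE), or 3.03-fold (edgeR quasi-likelihood test, adjusted p = 0.0184), and in a fit of all 20 samples it missed the threshold (1.61, adjusted p = 0.0883). In the cSCC libraries 18, 19, 20 and 21 Vegfa stood at 15.3, 26.8, 115 and 18 CPM. All 4 lay above every NS sample, but only cSCC 20 lay above every AK sample. The log2 fold change of cSCC vs. NS was 2.998 ± 0.510 (adjusted p = 0.00250), and 1.93 ± 0.45 (adjusted p = 0.0184) without cSCC 20 and 21. For cSCC vs. AK it was 1.42 ± 0.52 (adjusted p = 0.0591) and fell to 0.37 ± 0.49 (adjusted p = 0.666) without these libraries. In cSCC vs. AK Vegfa passed with DESeq2 (1.48, adjusted p = 0.0312), in a fit of all 20 samples (1.32, adjusted p = 0.0391) and without cSCC 18 (1.63, adjusted p = 0.0304) or cSCC 21 (1.61, adjusted p = 0.0498).

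Pgf, placental growth factor, showed the largest fold changes of the 9 tested genes in both comparisons with cSCC. It was barely detected in NS, from 0 CPM in NS 2 through a median of 1.3 to 6.51 CPM in NS 1, and ranged from 0.914 to 15.1 CPM around a median of 3.71 in AK. In cSCC 18, 19, 20 and 21 it reached 27.1, 292, 43.2 and 10.6 CPM. Every cSCC library lay above every NS library, and cSCC 18, 19 and 20 lay above every AK library. AK vs. NS gave a log2 fold change of 1.36 ± 0.69 (adjusted p = 0.227), which did not pass the test. Pgf (12:85166635-85177790, minus strand) was higher in cSCC than in NS by 5.65 ± 0.91 on the log2 scale, or 50.2-fold (adjusted p = 0.00185), and higher than in AK by 4.38 ± 0.78 (adjusted p = 0.00286). Leaving out cSCC 20 and 21 raised these values to 6.40 ± 0.84 (adjusted p = 0.00138) and 5.24 ± 0.70 (adjusted p = 0.00130). The size rested on cSCC 19, which held 664 Pgf counts, against 38 to 64 in each other cSCC library. Without cSCC 19 the log2 fold changes were 3.86 ± 0.84 vs. NS (adjusted p = 0.0109) and 2.51 ± 0.66 vs. AK (adjusted p = 0.0181), both still past the threshold.

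Vegfb, a ligand of Flt1, was low in all but 1 library. It ranged from 2.13 to 7.04 CPM in NS (median 3.36) and from 0.905 to 7.59 CPM in AK (median 2.26), and stood at 4.17, 5.27, 6.83 and 49.8 CPM in cSCC 18, 19, 20 and 21. Only cSCC 21, the library with heart transcripts, lay outside the range of NS and AK. The fitted log2 fold changes of 2.18 ± 0.60 vs. NS (adjusted p = 0.0217) and 2.85 ± 0.69 vs. AK (adjusted p = 0.0105) fell to 0.29 ± 0.60 (adjusted p = 0.786) and 0.88 ± 0.77 (adjusted p = 0.483) without cSCC 20 and 21. Without cSCC 21 alone they were 0.49 (adjusted p = 0.575) and 1.00 (adjusted p = 0.336), and with limma voom 1.03 (adjusted p = 0.323) and 1.64 (adjusted p = 0.163). Vegfb in AK vs. NS had a log2 fold change of -0.56 ± 0.41 (adjusted p = 0.415). Vegfc, the lymphatic ligand, was called by edgeR in none of the comparisons, and in cSCC vs. AK it passed only with the study's equal-variance test without adjustment. Its medians were 3.69 CPM in NS, 2.72 in AK and 7.24 in cSCC, where cSCC 21 was again highest at 13.6 CPM, and its log2 fold changes were -0.58 ± 0.70 for AK vs. NS, 0.91 ± 0.61 for cSCC vs. NS and 1.54 ± 0.88 for cSCC vs. AK. Vegfb rested on 6 to 12 counts and Vegfc on 5 to 20 in cSCC 18, 19 and 20, which limits what these libraries can show.

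Of the angiopoietins, Angpt2 passed the test in cSCC vs. NS. It was at 1.02, 3.36 and 6.81 CPM (lowest, median, highest) in NS and at 0, 5.29 and 23.5 CPM in AK. In cSCC 18, 19, 20 and 21 it was at 18.1, 39.1, 12.5 and 7.61 CPM. All 4 cSCC libraries lay above every NS library, with cSCC 19 highest and cSCC 21 only just above, and AK 14, AK 16 and AK 17 (23.5, 17.4 and 8 CPM) reached into the cSCC range. Angpt2 was higher in cSCC than in NS by a log2 fold change of 2.40 ± 0.53 (5.27-fold, adjusted p = 0.00809), and by 2.95 ± 0.55 (adjusted p = 0.00720) without cSCC 20 and 21. AK vs. NS gave 1.18 ± 0.52 (adjusted p = 0.170) and cSCC vs. AK 1.25 ± 0.65 (adjusted p = 0.172), neither past the threshold. Angpt1 was called in no comparison with all samples, and in cSCC vs. AK (log2 fold change 1.95 ± 1.02, adjusted p = 0.175) it passed without AK 16 (2.92, adjusted p = 0.0409). It was at or near 0 in some libraries of each group and highest in NS 1 (19 CPM), AK 16 (17.4 CPM) and cSCC 21 (33.2 CPM), and its log2 fold change for cSCC vs. NS turned from 0.98 ± 1.02 to -1.13 ± 1.48 without cSCC 20 and 21. Angpt2 (8:18690263-18741562) lies opposite Mcph1 and Angpt1 (15:42424723-42676977) opposite Gm17473 by their whole gene spans, and overlap of their exons was not examined. The strand setting of the counting is not given in the sources used here, so some reads of these pairs may not have been told apart.

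**Figure D1:**
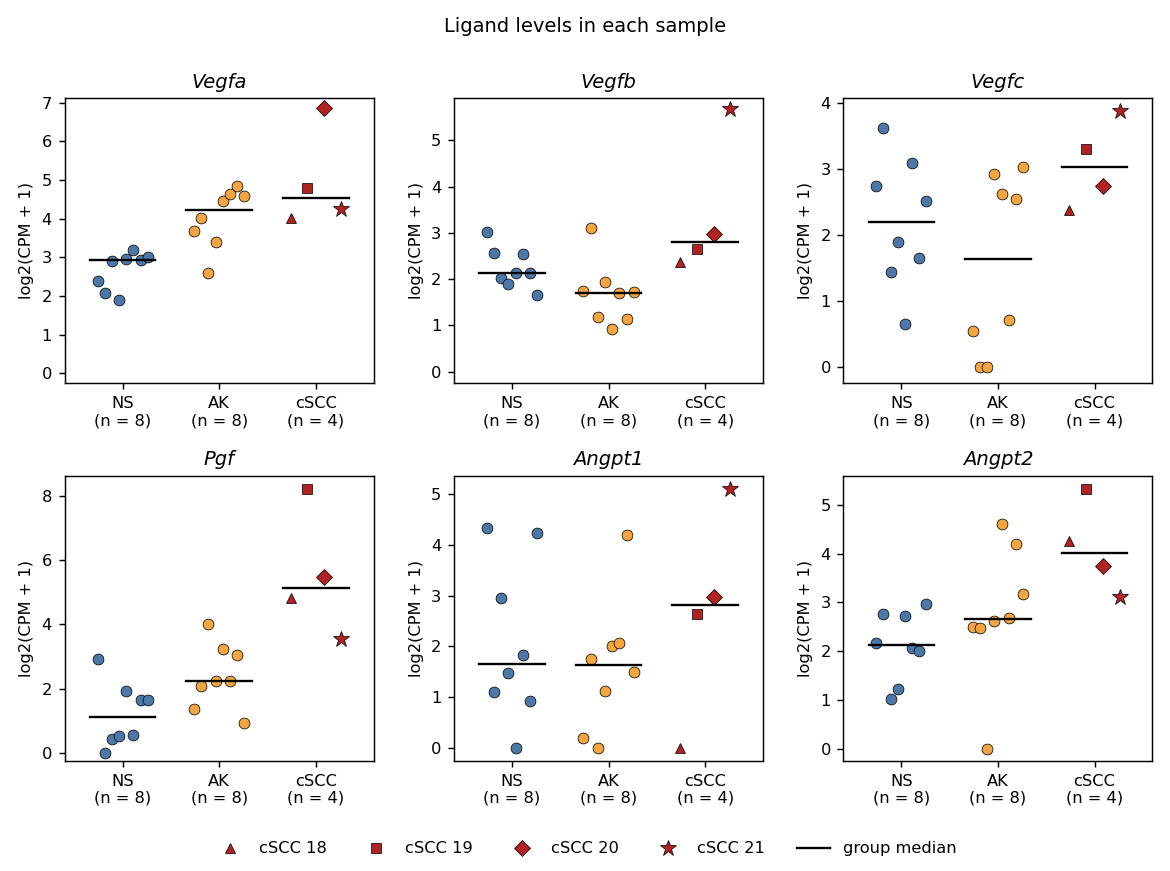
Levels of the 6 ligands in each sample, as log2(CPM + 1) on the y axis, in NS (n = 8), AK (n = 8) and cSCC (n = 4), with a line at the group median. Each cSCC library has its own symbol: Vegfa peaks in cSCC 20 (115 CPM), Pgf and Angpt2 in cSCC 19 (292 and 39.1 CPM), and Vegfb, Vegfc and Angpt1 in cSCC 21 (49.8, 13.6 and 33.2 CPM).

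Among the receptors, Kdr was low in skin and high in a single library. Its level was 2.44, 4.18 and 12.6 CPM (lowest, median, highest) in NS and 2.77, 5.91 and 9.11 CPM in AK. In cSCC 18, 19, 20 and 21 it was 10.4, 7.47, 13.7 and 181 CPM, from 15, 17, 12 and 1093 counts. The libraries cSCC 18 and 19 lay within the NS range and cSCC 20 just above it, while cSCC 21 was far above all others. Kdr (5:75932827-75978458, minus strand) passed the test in cSCC vs. NS (log2 fold change 3.43 ± 0.72, adjusted p = 0.00685) and cSCC vs. AK (3.39 ± 0.72, adjusted p = 0.00564). Without cSCC 20 and 21 the values were 0.78 ± 0.60 (adjusted p = 0.422) and 0.64 ± 0.55 (adjusted p = 0.478), and leaving out cSCC 21 alone gave 1.02 ± 0.52 (adjusted p = 0.205) and 0.82 ± 0.48 (adjusted p = 0.276). With limma voom, which weights down deviating libraries, Kdr also missed the threshold (1.54, adjusted p = 0.138, and 1.45, adjusted p = 0.195). AK vs. NS differed by 0.16 ± 0.37 (adjusted p = 0.828).

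Flt1 varied less between samples than Kdr in cSCC and was highest in the same library. Its level was at 4.35, 10.2 and 18 CPM in NS and at 10.1, 13.4 and 16.2 CPM in AK, and cSCC 18, 19, 20 and 21 held 16, 29.4, 18.2 and 72.9 CPM. Every cSCC library but cSCC 18 lay above all NS and all AK samples. Flt1 (5:147561604-147726011, minus strand) was higher in cSCC than in NS by a log2 fold change of 1.74 ± 0.42 (adjusted p = 0.0133) and higher than in AK by 1.56 ± 0.38 (adjusted p = 0.0107). Without cSCC 20 and 21 the values kept their direction, 1.102 ± 0.442 (adjusted p = 0.118) and 0.87 ± 0.33 (adjusted p = 0.104), but no longer passed, and without cSCC 21 alone they were 1.02 ± 0.39 (adjusted p = 0.0937) and 0.71 ± 0.30 (adjusted p = 0.126). Limma voom gave 1.301 (adjusted p = 0.0624) and 1.1002 (adjusted p = 0.0648). In AK vs. NS the log2 fold change was 0.27 ± 0.24 (adjusted p = 0.513).

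Nrp1, a co-receptor for VEGF and for semaphorins, varied widely among the cSCC libraries. Its range was 23.1 to 74.3 CPM in NS (median 31.9) and 12.6 to 84.5 CPM in AK (median 47.1), and it stood at 7.64, 47.9, 150 and 267 CPM in cSCC 18, 19, 20 and 21. The cSCC libraries lay on both sides of the other groups, cSCC 18 below every one of them and cSCC 20 and 21 above. No comparison passed the main test: cSCC vs. NS gave a log2 fold change of 1.67 ± 0.59 (adjusted p = 0.0625) and cSCC vs. AK 1.46 ± 0.66 (adjusted p = 0.115), and both turned negative without cSCC 20 and 21, at -0.45 ± 0.59 and -0.69 ± 0.70. Leaving out cSCC 18 instead brought Nrp1 past the threshold, at 2.05 ± 0.46 vs. NS (adjusted p = 0.00666) and 1.72 ± 0.53 vs. AK (adjusted p = 0.0250), and DESeq2 called it vs. NS (1.68, adjusted p = 0.0368). It also passed vs. NS in a fit of all 20 samples (1.56, adjusted p = 0.0449), with at least 10 counts in every sample (1.77, adjusted p = 0.0469) and, just under the threshold, without cSCC 19 (1.92, adjusted p = 0.049954), and in both comparisons on the unadjusted p. Flt4 was kept by the filter on low counts in none of the comparisons and was not tested. It was listed at 0 in 2 NS, 4 AK and 2 cSCC libraries, reached 3.62 CPM at most in NS and 1.08 CPM in AK, and stood at 11.6 CPM (70 counts) in cSCC 21.

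**Figure D2:**
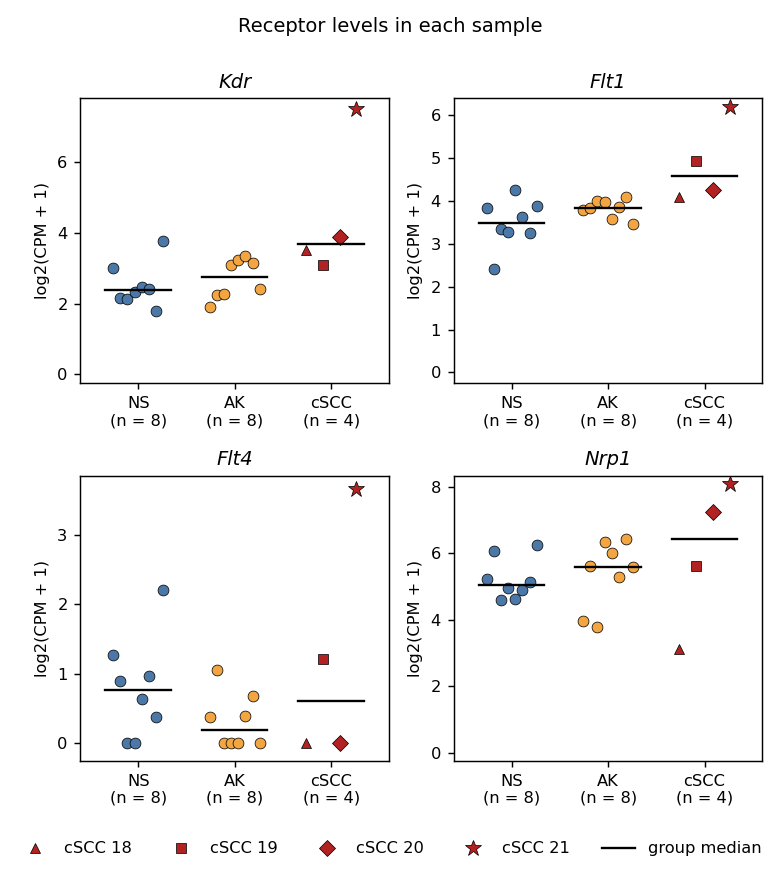
Levels of Kdr, Flt1, Flt4 and Nrp1 in each sample, as log2(CPM + 1) on the y axis, in NS (n = 8), AK (n = 8) and cSCC (n = 4), with a line at the group median. The star, cSCC 21, is the highest sample in all 4 panels (181, 72.9, 11.6 and 267 CPM).

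Counted over the 10 genes, 9 were tested in each comparison. Vegfa alone was higher in AK than in NS and none was lower, beside 2.26% of the 11677 tested genes called higher and 2.38% called lower. In cSCC vs. NS 6 were higher (Vegfa, Vegfb, Pgf, Kdr, Flt1 and Angpt2) and none was lower, where 11.7% of 12097 genes were called higher and 7.65% lower. Without cSCC 20 and 21, 3 were higher (Vegfa, Pgf and Angpt2) and none lower, where 5.74% of 12762 genes were called higher and 6.46% lower. In cSCC vs. AK 4 were higher (Vegfb, Pgf, Kdr and Flt1) and none was lower, where 16% of 12032 genes were called higher and 8.34% lower. Without cSCC 20 and 21 Pgf alone was higher and none was lower, where 6.71% of 12567 genes were called higher and 5.90% lower. With all samples, none was lower in the 3 comparisons by edgeR at an unadjusted p under 0.05, by limma voom or, where it gave an adjusted p, by DESeq2, and without cSCC 20 and 21 none was lower by edgeR at an unadjusted p under 0.05. The comparisons share samples, so their counts are not independent. By library, Pgf and Angpt2 had their highest cSCC level in cSCC 19, Vegfa in cSCC 20 and the other members in cSCC 21. How often all genes were highest in cSCC 21, the deepest cSCC library, was not counted. Scaling by library size alone moved the median log2 fold change of all genes in cSCC vs. NS from 0.14 to -0.17 and the calls from 1414 higher and 926 lower to 625 higher and 1332 lower; the median of cSCC vs. AK moved from 0.17 to -0.09 (1931 higher and 1004 lower, to 1021 and 1356), and in AK vs. NS the calls moved from 264 and 278 to 176 and 481. Upper quartile factors gave 190 higher and 391 lower in AK vs. NS. Of the members called, Vegfb in cSCC vs. NS was lost with library size alone (log2 fold change 1.82, adjusted p = 0.0596).

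**Figure D3:**
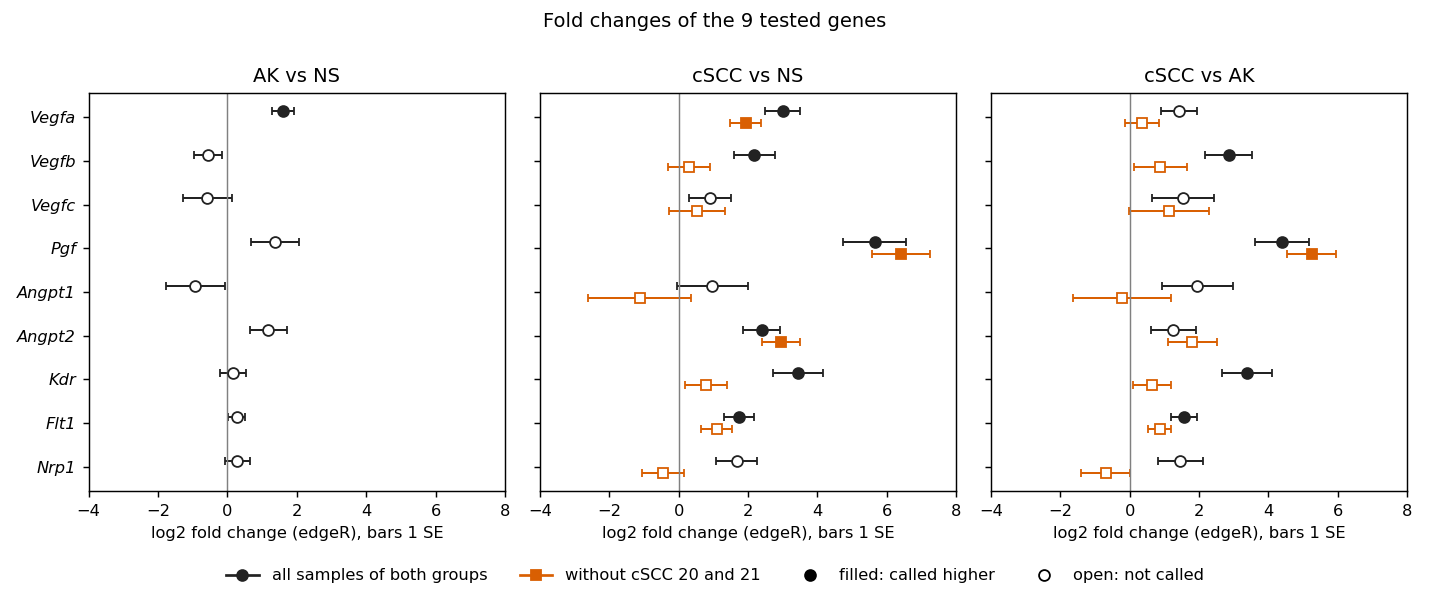
Log2 fold changes (x axis, edgeR, bars 1 SE) of the 9 tested genes in the 3 comparisons, with all samples of both groups (black circles) and without cSCC 20 and 21 (orange squares). Filled symbols were called higher: Pgf stays filled in both comparisons with cSCC, Vegfa and Angpt2 in cSCC vs. NS, and Kdr, Flt1 and Vegfb become open.

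The level of endothelial markers was followed in the same libraries. The 18 endothelial genes, which include none of the 10 genes above, summed to 61.4 to 267 CPM in NS (median 132), 71.0 to 206 CPM in AK (median 151) and 205, 460, 558 and 1184 CPM in cSCC 18, 19, 20 and 21. Cd34, which is not restricted to endothelium, made up 19.3% to 55.8% of this sum in NS, 27.2% to 48% in AK and 13.9% to 48.4% in cSCC, with the highest cSCC share in cSCC 19 (223 CPM). Of these genes, 11 of 14 tested were higher in cSCC than in NS (median log2 fold change 2.40, against 0.14 over all tested genes), led by Tie1 (4.46 ± 0.84, adjusted p = 0.00417) and Esam, an endothelial junction protein (3.69 ± 0.77, adjusted p = 0.00679), and without cSCC 20 and 21 none of 14 passed (edgeR, 5 at an unadjusted p under 0.05, all higher, median 1.35, against -0.06). In cSCC vs. AK 13 of 15 were higher (median 2.52, against 0.17), and 2 of 15 without these libraries (median 1.25, against -0.01): Eng, a TGF-beta co-receptor (2.69 ± 0.56, adjusted p = 0.00871), and Egfl7 (2.03 ± 0.56, adjusted p = 0.0294). In AK vs. NS 0 of 12 tested passed in edgeR, also at an unadjusted p under 0.05 (median -0.18, against -0.04).

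Relative to the summed endothelial markers, the receptors stood as follows. Kdr was at 5.08, 1.62, 2.45 and 15.3 CPM per 100 endothelial CPM in cSCC 18, 19, 20 and 21, against 1.75 to 7.34 in NS and 1.79 to 6.40 in AK, so that cSCC 21 alone exceeded the other groups and cSCC 19 was below them. Flt1 was at 7.80, 6.40, 3.27 and 6.16 CPM per 100 endothelial CPM in the cSCC libraries, all within the NS range of 2.18 to 29.4, whose upper end is NS 6 alone (the next NS sample is at 10.3). The AK range was 5.83 to 18.1, and cSCC 20 lay below it. Nrp1 was at 3.73, 10.4, 26.9 and 22.5, with cSCC 18 and 19 below the lowest NS and AK samples (13.4 and 11.2). Angpt2 was at 8.81 and 8.50 in cSCC 18 and 19 and at 2.24 and 0.643 in cSCC 20 and 21. Its range was 1.07 to 9.17 in NS (median 2.37) and 0 to 12.6 in AK (median 5.17). The libraries cSCC 18 and 19 thus lay within both ranges, and cSCC 21 lay below every NS sample. These ratios are descriptions, and the part of endothelial content in the receptor levels was not tested.

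**Figure D4:**
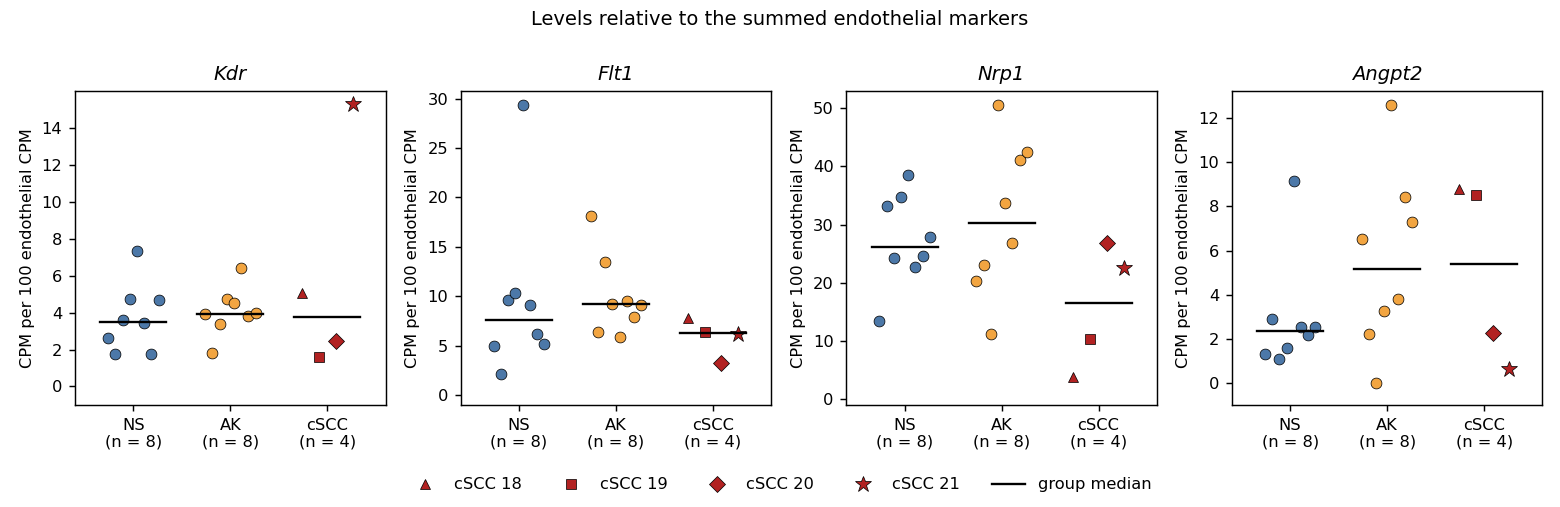
CPM of Kdr, Flt1, Nrp1 and Angpt2 per 100 CPM of the 18 summed endothelial markers in each sample (y axis), in NS (n = 8), AK (n = 8) and cSCC (n = 4), with a line at the group median. On this scale cSCC 21 stands above NS and AK for Kdr (15.3) and lies within the range of NS for Flt1 (6.16).

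Marker lists of other tissues and cell types were followed as well. Of the lung genes 4 of 11 were tested against NS and all 4 were higher in cSCC, and without cSCC 20 and 21 edgeR called 0 higher and 1 lower, the same numbers as at an unadjusted p under 0.05. The lower gene was Scgb1a1, a club cell protein, at 0 CPM in cSCC 18 and 19 and at 0.913 to 12.2 CPM in NS. Of the heart genes 7 of 12 were tested against NS and all 7 were higher. Without these libraries 2 were higher, the troponins Tnnt2 (2.597 ± 0.535, adjusted p = 0.0107) and Tnnc1 (3.33 ± 0.81, adjusted p = 0.0213), and the heart genes summed to 97.2 and 110 CPM in cSCC 18 and 19, above every NS and AK library (13 to 89.5 CPM). Pericyte and smooth muscle genes (11 genes) summed to 103 to 395 CPM in NS, 101 to 406 CPM in AK and 220 to 312 CPM in cSCC 18, 19 and 20, and to 2955 CPM in cSCC 21. Of these 11, 1 was higher in cSCC than in NS, Des, a muscle filament protein (3.78 ± 1.09, adjusted p = 0.0267). Des alone stood at 1961 CPM in cSCC 21, the library with heart transcripts, and at 9.03, 8.79 and 21.6 CPM in cSCC 18, 19 and 20. Without cSCC 20 and 21 edgeR called none of the 11 higher and 1 lower (none and 3 at an unadjusted p under 0.05). The lower gene was Myh11, smooth muscle myosin, at 0 CPM in cSCC 18 and 19 and at 2.55 to 9.86 CPM in NS. The 4 haemoglobin genes were all called higher in cSCC than in NS, with and without cSCC 20 and 21. They summed to 920532, 12600, 44349 and 70590 CPM in cSCC 18, 19, 20 and 21, against 804 to 52171 CPM in NS. The libraries cSCC 19 and 20 thus lay within the NS range, and the call without cSCC 20 and 21 rested on cSCC 18. Of 6 lymphatic markers 5 were tested against NS. Among them Pdpn, which keratinocytes and fibroblasts also express, was the 1 higher in cSCC (2.77 ± 0.62 vs. NS, adjusted p = 0.00860), also without cSCC 20 and 21 (3.40 ± 0.58, adjusted p = 0.00476). Pdpn was at 59.0, 584, 157 and 24.3 CPM in cSCC 18, 19, 20 and 21, against 12.8 to 62.6 CPM in NS. The libraries cSCC 18 and 21 lay within the NS range, so that the fit without cSCC 20 and 21 rested on cSCC 19. The median log2 fold change of the 5 was -0.57, against 0.14 over all tested genes, and -2.02 without cSCC 20 and 21, against -0.06. In cSCC vs. AK without these libraries, edgeR at an unadjusted p under 0.05 gave 1 higher and 3 lower. Prox1, not tested against NS, stood at 0, 1.32, 0 and 82.4 CPM in cSCC 18, 19, 20 and 21. Of 8 macrophage markers 2 were higher in cSCC than in NS, C1qa (1.73 ± 0.53, adjusted p = 0.0341) and Fcgr1 (1.64 ± 0.55, adjusted p = 0.0485), and Fcgr1 was also higher in AK (1.49 ± 0.39, adjusted p = 0.0356). The median log2 fold change of the 8 in cSCC vs. NS was 0.10, against 0.14 over all tested genes, and -0.27 without cSCC 20 and 21, against -0.06. In AK vs. NS the median was 0.45, against -0.04, and C1qa stood at -1.01 ± 0.44 (adjusted p = 0.164). Fcgr1 passed vs. NS also without cSCC 20 and 21 (2.17 ± 0.53, adjusted p = 0.0228), and C1qa did not (1.87 ± 0.65, adjusted p = 0.0759). Of 6 keratinocyte genes Krt10 and Krt1 were lower in cSCC than in NS (log2 fold changes -4.04 ± 0.92 and -3.46 ± 0.97) and Dsg3 was higher (0.95 ± 0.31). When cSCC 20 and 21 were left out, Krt10 was still called lower (-3.29 ± 0.99, adjusted p = 0.0463) and Dsg3 higher (1.29 ± 0.34, adjusted p = 0.0294), and Krt1 missed the threshold (-2.68 ± 0.98, adjusted p = 0.0903). The part of these markers in the levels of the 10 genes was not tested.

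**Figure D5:**
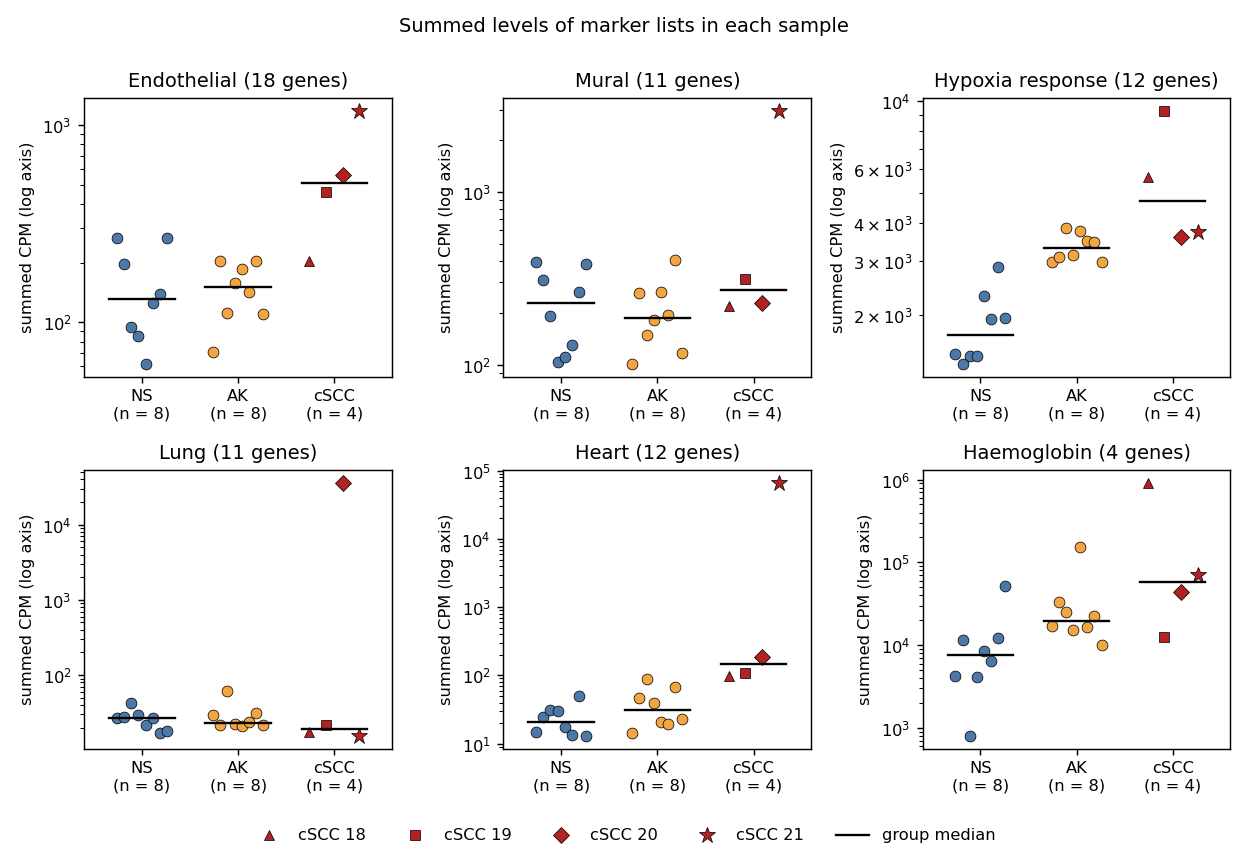
Summed CPM (y axis, log scale) of 6 marker lists in each sample, in NS (n = 8), AK (n = 8) and cSCC (n = 4), with a line at the group median. Lung genes stand out in cSCC 20 (36322 CPM), heart and mural genes in cSCC 21 (67289 and 2955 CPM, the latter with Des alone at 1961 CPM), and haemoglobin in cSCC 18. The sum of the hypoxia genes is higher in every AK and cSCC library than in any NS library.

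Genes induced by low oxygen, the stimulus best known for Vegfa, were followed with a list of 12 that leaves Vegfa out. They summed to 1380 to 2874 CPM in NS, 2978 to 3846 CPM in AK and 5661, 9310, 3594 and 3749 CPM in cSCC 18, 19, 20 and 21. By this sum all AK and cSCC libraries lay above every NS library, and the libraries with lung and heart transcripts were the lowest of the cSCC. Ldha, lactate dehydrogenase A, made up 49.6% to 65.4% of the sum in NS, 42% to 60.2% in AK and 49.2% to 68.1% in cSCC. In AK vs. NS 5 of 12 were higher (median log2 fold change 0.81, against -0.04 over all tested genes), among them Ndrg1, a stress-induced gene (1.46 ± 0.28, adjusted p = 0.0156), Bnip3, a mitophagy receptor (1.18 ± 0.28, adjusted p = 0.0263), and Slc2a1, the glucose transporter GLUT1 (1.02 ± 0.29, adjusted p = 0.0456). In cSCC vs. NS 9 of 12 were higher (median 1.52, against 0.14), led by Adm, the vasodilator peptide adrenomedullin (3.26 ± 0.53, adjusted p = 0.00198), and Car9, a carbonic anhydrase (3.08 ± 0.78, adjusted p = 0.0157). Without cSCC 20 and 21, 8 of 12 were higher (median 1.88, against -0.06), with Adm at 3.74 ± 0.56 (adjusted p = 0.00280) and Car9 at 3.71 ± 0.71 (adjusted p = 0.00764). In cSCC vs. AK 4 of 12 were higher, Adm, Car9, Ldha and Slc2a1, and Pgk1 joined them without cSCC 20 and 21. None of the 12 was called lower by edgeR, and Car12 was lower in cSCC vs. AK at an unadjusted p under 0.05 (-0.69 ± 0.31, adjusted p = 0.111).

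Of 25 other genes of the VEGF and angiopoietin pathways, 17 were tested in AK vs. NS, where edgeR called none higher, also at an unadjusted p under 0.05, and Unc5b, a netrin receptor of sprouting vessels, was lower (log2 fold change -1.59 ± 0.41, adjusted p = 0.0334, median of the 17 -0.15, against -0.04). In cSCC vs. NS 6 of 18 tested were higher and 1 was lower (median 1.097, against 0.14 over all tested genes). The higher genes were led by Tie1 and by Apln, the ligand apelin (3.67 ± 1.02, adjusted p = 0.0234), and the lower gene was Efnb2, a membrane ligand of arterial endothelium that other cells also express (-1.81 ± 0.39, adjusted p = 0.00782). In cSCC vs. AK 9 of 20 were higher and 1 was lower (median 1.33, against 0.17), with Tie1 (3.41 ± 0.74, adjusted p = 0.00629), the semaphorin receptor Plxnd1 (2.91 ± 0.54, adjusted p = 0.00331) and Cdh5, the cadherin of endothelial junctions (2.52 ± 0.74, adjusted p = 0.0247), higher, and Efnb2 lower (-1.67 ± 0.35, adjusted p = 0.00565). Tek, Tie1 and Cdh5 are also among the 18 endothelial markers. Without cSCC 20 and 21, 1 of 20 was higher and 3 were lower vs. NS (median -0.16, against -0.06), and 1 was higher and 1 lower vs. AK (median 0.02, against -0.01). Beside Efnb2, the genes lower vs. NS were Sh2d2a, an adaptor of VEGF receptor 2, and Unc5b. Sh2d2a was at 0 CPM in all 4 cSCC libraries and at 1.06 to 5.48 CPM in NS. The floor of 3 counts was 2.08, 1.32 and 3.41 CPM in cSCC 18, 19 and 20, so that part of the NS range lay below it. With all 4 cSCC libraries Sh2d2a was not kept by the filter on low counts and was not tested. Unc5b was at 0 and 0.879 CPM in cSCC 18 and 19 and at 22 CPM in cSCC 21, against 6.70 to 27.1 CPM in NS. The gene higher in both was Ephb4, a receptor of Efnb2 (1.52 ± 0.43, adjusted p = 0.0374 vs. NS, and 1.56 ± 0.34, adjusted p = 0.0107 vs. AK), and Efnb2 was lower in both (-2.17 ± 0.37, adjusted p = 0.00476, and -2.03 ± 0.29, adjusted p = 0.00188). Efnb2 was at 22.2, 25.5, 61.4 and 13.7 CPM in cSCC 18, 19, 20 and 21, each below the lowest of the NS and AK libraries (70.3 CPM).

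Levels of different genes were compared per length, as median CPM per kb of merged exons. In NS the order was Nrp1 (3.26 CPM per kb), Vegfb (2.10), Vegfa (1.53), Vegfc (1.51), Angpt2 (0.909), Flt1 (0.758), Kdr (0.463), Pgf (0.449), Angpt1 (0.418) and Flt4 (0.0870). In AK Nrp1 (4.81 CPM per kb) was followed by Vegfa (4.20) and Angpt2 (1.43), and Pgf (1.28) stood above Flt1 (0.992) and Kdr (0.655). In cSCC Pgf led (12.1 CPM per kb), before Nrp1 (10.1), Vegfa (5.23), Angpt2 (4.14) and Vegfb (3.77). In cSCC 18 and 19 alone the order was Pgf (54.9 CPM per kb), Angpt2 (7.75), Vegfa (4.91), Vegfb (2.94), Nrp1 (2.84), Vegfc (2.65), Flt1 (1.68), Kdr (0.991), Angpt1 (0.507) and Flt4 (0.0801). Pgf, in the eighth place in NS, thus came first by median in cSCC with and without cSCC 20 and 21. Nrp1, next after Pgf with them, stood below Angpt2, Vegfa and Vegfb without them. The order by median did not hold for each library, as Pgf ranged from 3.65 to 101 CPM per kb over the cSCC libraries. Its median in cSCC 18 and 19 is the middle of 2 libraries at 27.1 and 292 CPM. The ranges over samples of all 9 pairs of neighbours overlapped in NS, AK and all 4 cSCC, so that no 2 neighbours in the order were separated.

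Across the 16 NS and AK samples, the genes whose log2(CPM + 1) followed each member most closely were sought among 11677 genes. Vegfa was followed most closely by Pnp, purine nucleoside phosphorylase (Pearson r = 0.926, Spearman rho = 0.918), before Tgfbr1 (r = 0.843) and Ctsc (r = 0.839). Nrp1 was followed by Sgce (r = 0.896), Tlr7 (r = 0.896) and Abi3bp (r = 0.885), Vegfb by Ctsw (r = 0.895), Flt1 by Zfp46 (r = 0.889), Pgf by Bbx (r = 0.870) and Angpt2 by Chek2 (r = 0.869). The closest genes were Galnt15 for Flt4 (r = 0.847), Tmem242 for Vegfc (r = 0.832) and Zfp39 for Angpt1 (r = 0.820), and the least close leader was Pkd2 for Kdr (r = 0.772). These are the highest of many correlations over samples that share groups and differ in depth, and they are given as a description.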

How the data were processed

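RNA-seq was measured in 20 skin samples, grouped by their labels into 8 NS, 8 AK and 4 cSCC. The deposited values are raw counts per gene symbol, which the authors did not normalize. Per the study's methods, reads were trimmed with Trimmomatic and aligned to GRCm38 with HISAT2, and expression was quantified with StringTie, whereas the submitters' processing notes name Trimmomatic 0.36, HISAT2 2.0.5, featureCounts 1.5.2 and the builds hg19 and mm9. The build and the counter behind the counts are thus uncertain, and gene coordinates and lengths are from GENCODE M21 (GRCm38). The strand setting was not given in the sources used here. No column of the table was left unused.

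CPM used TMM factors of all 20 libraries. Each comparison used only the libraries of its groups and the quasi-likelihood test of edgeR 4.0.16 (R 4.3.3) on genes kept by filterByExpr. A gene was called at a Benjamini-Hochberg adjusted p under 0.05 over all tested genes with a change of over 1.5-fold, or to under 0.67-fold. The fits were tested on simulated data. Libraries of a group were compared in 62 pairs, and their counts differed beyond sampling noise in each (chi-square at least 11.3 times its degrees of freedom). The replicates' spread may be technical in part.

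The members, marker lists and tests were chosen with earlier results of these data known. All members are named, and from each list at most 4 called genes per comparison with the largest fold change, plus for each member up to 3 genes most correlated with it. Genes shown for separate libraries (Sftpc, Actc1, Krt5, Krt14, Krt10, Cd34, Ldha, Car12, Prox1, Des, Pdpn), C1qa in AK vs. NS, and Ephb4 and Efnb2 levels were picked once their values were known. The alternatives included DESeq2 1.42.0, limma 3.58.1 voom, other scalings, filters and thresholds, the study's unadjusted equal-variance test per gene, all samples in 1 fit, and leaving out libraries. A fit without the haemoglobin genes was chosen after seeing the data.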

Additional observations from a re-analysis of the deposited data

Results flagged for a closer look

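In each group of each member, the highest and lowest samples were compared with their nearest neighbour, 30 sets in all, and on the log2(CPM + 1) scale 2 samples stood far from the others, where chance flags about 1 in 20 sets. Vegfb in AK 11 was at 7.59 CPM, the highest of the AK samples, with the next at 2.81 CPM. Angpt2 in AK 12 was at 0 CPM, with the next AK sample at 4.55 CPM, and AK 12 held 867219 counts, so that 3 counts corresponded to 3.78 CPM there. On the CPM scale, which spreads high values more, 10 samples stood far from the others, each the highest of its group. In cSCC these were Vegfa in cSCC 20 (115 CPM, the next at 26.8), Pgf in cSCC 19 (292, the next at 43.2) and Vegfb, Kdr and Flt4 in cSCC 21 (49.8, 181 and 11.6, the next at 6.83, 13.7 and 1.32). In NS they were Pgf in NS 1 (6.51 CPM, the next at 2.82) and Kdr and Flt4 in NS 9 (12.6 and 3.62, the next at 7.04 and 1.41). In AK they were Vegfb in AK 11, given above, and Angpt1 in AK 16 (17.4 CPM, the next at 3.19).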

How the results depend on the processing

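The count of members called was recomputed under each alternative. For AK vs. NS the main count of 1 (Vegfa) became 2 at an unadjusted p, 2 with the study's equal-variance test without adjustment, 0 with all 20 samples in 1 fit and 0 where at least 10 counts in every sample were asked for, which removed Vegfa from the test. For cSCC vs. NS the main count of 6 became 3 with limma voom, 3 with at least 10 counts in every sample and 3 without cSCC 20 and 21, and it ranged from 3 (without cSCC 21) to 7 when samples were left out in turn. For cSCC vs. AK the main count of 4 became 1 with limma voom, 1 with at least 10 counts and 1 without cSCC 20 and 21, and ranged from 2 (without cSCC 21) to 6 (without cSCC 18). In all, 5 single values turned their direction: without cSCC 20 and 21, Nrp1 to -0.45 vs. NS and -0.69 vs. AK and Angpt1 to -1.13 vs. NS and -0.22 vs. AK, and Angpt1 to -0.64 vs. NS without cSCC 21, the lower end of a range that reached 1.47 (without NS 1) when samples were left out in turn. Over the other fold changes of single genes, 635 kept their direction and side of the threshold, 21 fell below it and 17 rose past it, and the cause was not tested. Settings that changed only the threshold kept the fold changes of the main fit, and fits that left out samples shared the remaining ones. These counts are therefore not independent. DESeq2 gave no adjusted p for Vegfb and Kdr in the comparisons with cSCC, which are left out here. With 4 cSCC libraries, the smallest of 775750 counts, a level under 3 counts could not be told from 0. No paired analysis was possible because the groups share no replicate number and the labels do not name the mouse of a sample.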
